A study of Rattus norvegicus with 6 samples.

Results

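Fibrinogen is the soluble plasma protein that thrombin turns into the fibres of a clot, and NF-kB is a family of transcription factors that switch on inflammatory genes. The genes described here are the 3 fibrinogen chains (Fga, Fgb and Fgg), the secreted acute-phase proteins Serpina3n and Lcn2, the NF-kB regulators Nfkbia, Nfkb2 and Tnfaip3, and the adhesion receptor Icam1. They were selected by symbol, and the set was picked for the large rises of Fga and Fgb between the ages. Of the 9 named genes, 8 had a row among the 17055 gene rows, and all 8 passed the filter on low counts. Tnfaip3, an inhibitor of NF-kB signalling, was not analysed here. Because the set was picked on the contrast between adult and P10 islets, values of the 8 genes in that contrast are given as a description, with no test.

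Islets, the hormone-secreting clusters of the pancreas, came from Sprague-Dawley rats labelled as controls, and their polyadenylated RNA was sequenced. The adult group held islets of 3-month-old (12-week) males, and the P10 group islets of 10-day-old (1.5-week) pups whose sex the labels do not give, so age and any difference in sex cannot be told apart. Each group had 3 libraries labelled as biological replicates, numbered 1, 2 and 3 for adults and 1, 3 and 4 for P10. The labels do not say whether animals were pooled, so p-values measure only the spread between these libraries. Reads assigned to genes numbered 3307415 to 6280144 in adult libraries and 3554194 to 6477825 in P10 libraries. The insulin genes took 46.7% to 52.3% of these reads in adults and 28.4% to 33.6% at P10. Levels are CPM, read counts divided by each library's effective total (edgeR's TMM composition factors) and put on a common scale. In bulk tissue, fewer cells of a type and less RNA per cell cannot be told apart.

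Fibrinogen is assembled in the endoplasmic reticulum from paired Aα, Bβ and γ chains, the products of Fga, Fgb and Fgg. It is made mainly by hepatocytes, where interleukin-6 acting through STAT3, glucocorticoids and C/EBP factors raise its transcription in inflammation. NF-kB dimers are held in the cytoplasm by IκB proteins until kinases downstream of TNF, interleukin-1 or Toll-like receptors trigger IκB breakdown. The freed dimers induce their own inhibitors, such as IκBα (Nfkbia) and A20 (Tnfaip3), together with chemokines and adhesion molecules. In beta cells, interleukin-1 is a well-known activator of this pathway.

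The promoter windows of the 3 fibrinogen genes and of the NF-kB regulators Nfkbia and Nfkb2 are shown because these 5 genes had higher levels in adult islets. RefSeq windows of the GRCr8 assembly were found for all 9 named genes, each with 250 bases before and 50 after the annotated start. They are printed 5′ to 3′ on the gene's strand. Capitals mark matches on either strand to 2 motifs, the NF-kB consensus GGGRNNYYCC and the interleukin-6 response element core CTGGGAA. In the consensus, R is A or G, Y is C or T, and N is any base. For Fga, which has 2 windows, the first by position is given.
Fgg, chr2:170652833-170653132, plus strand: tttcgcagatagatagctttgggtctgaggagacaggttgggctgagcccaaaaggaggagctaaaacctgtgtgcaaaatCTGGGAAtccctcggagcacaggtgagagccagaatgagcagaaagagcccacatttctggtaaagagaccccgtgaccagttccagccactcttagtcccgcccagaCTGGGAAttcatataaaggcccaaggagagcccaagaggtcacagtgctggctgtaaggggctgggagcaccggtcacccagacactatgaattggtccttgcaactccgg
Fga, chr2:170671919-170672218, plus strand: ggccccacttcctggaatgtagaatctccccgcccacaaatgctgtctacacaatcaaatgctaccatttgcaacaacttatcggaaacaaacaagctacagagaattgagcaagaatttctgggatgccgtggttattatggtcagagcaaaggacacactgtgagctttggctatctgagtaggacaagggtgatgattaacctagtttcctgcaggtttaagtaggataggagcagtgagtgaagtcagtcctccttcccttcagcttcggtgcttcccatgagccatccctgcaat
Fgb, chr2:170700826-170701125, minus strand: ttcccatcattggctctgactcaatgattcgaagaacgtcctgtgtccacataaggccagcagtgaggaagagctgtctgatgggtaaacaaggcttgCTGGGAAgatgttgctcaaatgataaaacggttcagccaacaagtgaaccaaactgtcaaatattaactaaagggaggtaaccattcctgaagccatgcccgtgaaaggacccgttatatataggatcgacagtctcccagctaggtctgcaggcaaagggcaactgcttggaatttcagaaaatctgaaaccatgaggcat
Nfkbia, chr6:78597023-78597322, minus strand: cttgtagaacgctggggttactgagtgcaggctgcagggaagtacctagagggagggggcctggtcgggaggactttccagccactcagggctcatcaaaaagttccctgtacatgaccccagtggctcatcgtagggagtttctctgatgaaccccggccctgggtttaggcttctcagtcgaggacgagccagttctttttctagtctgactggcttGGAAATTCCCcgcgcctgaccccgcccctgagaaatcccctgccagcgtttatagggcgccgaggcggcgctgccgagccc
Nfkb2, chr1:255108124-255108423, plus strand: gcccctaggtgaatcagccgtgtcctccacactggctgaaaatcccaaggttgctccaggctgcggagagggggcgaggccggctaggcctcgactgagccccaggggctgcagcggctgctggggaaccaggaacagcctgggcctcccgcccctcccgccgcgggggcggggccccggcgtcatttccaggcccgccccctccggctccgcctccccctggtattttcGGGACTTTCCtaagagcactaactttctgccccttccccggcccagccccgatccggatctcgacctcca

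The NF-kB consensus was found at 31 bases before the start of Nfkbia, on the other strand, and 20 bases before that of Nfkb2, counted to the first base of each match. Windows of Lcn2 and Tnfaip3 also held it, while those of the fibrinogen chains, Serpina3n and Icam1 held no full match to GGGRNNYYCC. The Icam1 window held tggaaattcc, which has T where the pattern opens with G. Near matches were not searched for in any window, so a window without a full match may still hold a related site. CTGGGAA occurred in Fgg (169 and 61 bases upstream), Fgb (152 bases upstream), Serpina3n (123 bases upstream) and Lcn2. In Lcn2 it overlapped the NF-kB match. The Fga window held neither motif. Across all 33469 windows of the same length, 7.51% held the NF-kB consensus and 11.3% the interleukin-6 core. A match is a description of the letters and no evidence of binding.

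**Figure D1:**
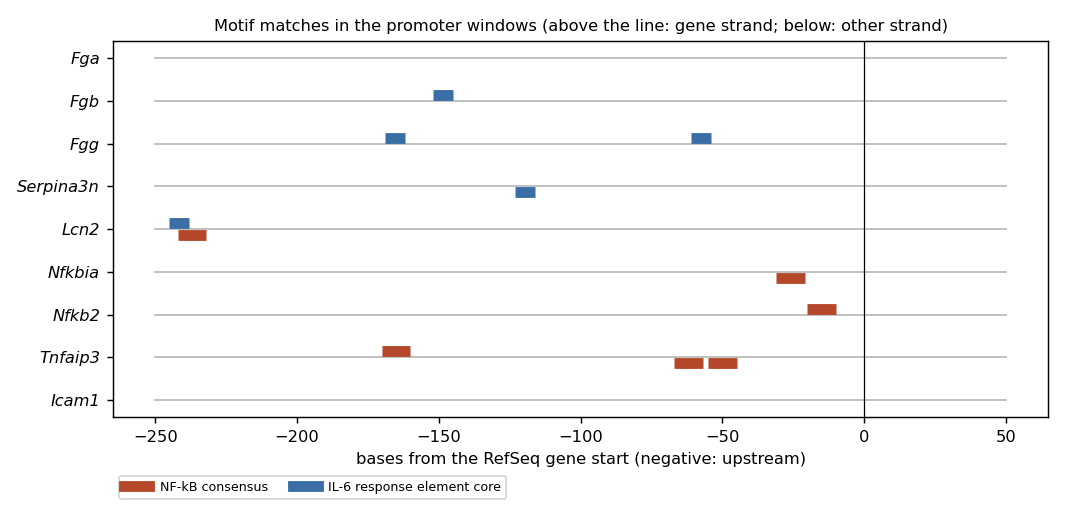
Matches to 2 motifs in the promoter windows of the 9 named genes, plotted by distance in bases from the RefSeq gene start, with gene-strand matches above each line and other-strand matches below. Matches to the NF-kB consensus stand 31 and 20 bases before the starts of Nfkbia and Nfkb2, and among the fibrinogen chains Fgg and Fgb hold matches to the interleukin-6 core.

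All 3 fibrinogen chains had higher levels in adult islets than in P10 islets, in every adult library against every P10 library. Fgb, the Bβ chain, had 1134, 806 and 1174 CPM in adult replicates 1, 2 and 3, against 98.2, 93.8 and 80.1 CPM in P10 replicates 1, 3 and 4. The lowest adult library stood several times above the highest P10 library. The fitted log2 fold change of Fgb, adult over P10, was 3.51 ± 0.16 (SE), or 11.4-fold. Fgg, the γ chain, had 246, 262 and 246 CPM in adults, against 56.0, 45.3 and 44.2 CPM at P10. Its adult libraries lay close together, with an SD of 9.20 around a mean of 251 CPM (n = 3). The fitted log2 fold change of Fgg was 2.37 ± 0.14 (SE), or 5.16-fold.

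Fga, the Aα chain, was read from few counts, with 30, 23 and 72 reads in adult replicates 1, 2 and 3 and 0, 1 and 3 reads in P10 replicates 1, 3 and 4. These correspond to 10.4, 8.43 and 13.2 CPM in adults, against 0, 0.149 and 0.728 CPM at P10. The P10 values all lay below the level of 3 counts in their library, which was 0.407 to 0.728 CPM, or at it. Over the groups, 125 adult reads stood against 4 P10 reads, a ratio of normalised counts of 51.5 with an exact 95% counting interval of 19.6 to 192. The ratio was 30.6 (11.7 to 114) without P10 replicate 1, and 159 (28.1 to 6342) without P10 replicate 4, which left 1 read at P10. The fitted log2 fold change of Fga was 5.38 ± 0.82 (SE), and with the replicate number as a block it was 6.96. Intervals and floors cover counting error only. Gene lengths of the build used for counting were not used here, so levels are compared between libraries and not between chains.

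By fitted rise, Fga ranked 2, Fgb 16 and Fgg 53 among the 10124 tested genes, a description of the values by which the set was picked. The ratio of Fgb to Fgg reads within a library, which does not depend on scaling, was 4.61, 3.08 and 4.76 in adult replicates 1, 2 and 3. It was 1.75, 2.07 and 1.81 in P10 replicates 1, 3 and 4. The ratio averaged 4.15 ± 0.934 in adults and 1.88 ± 0.168 at P10 (SD, n = 3 each), and the groups did not overlap. Adult replicate 2 had the lowest Fgb level and the highest Fgg level of the adults, and so the lowest adult ratio. The ratio of Fga to Fgb reads was 0.00915, 0.0105 and 0.0113 in adult replicates 1, 2 and 3, and 0, 0.00158 and 0.00909 in P10 replicates 1, 3 and 4. P10 replicate 4, with 3 Fga reads, lay almost at the level of adult replicate 1, so a difference between these chains was not detectable at this depth.

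**Figure D2:**
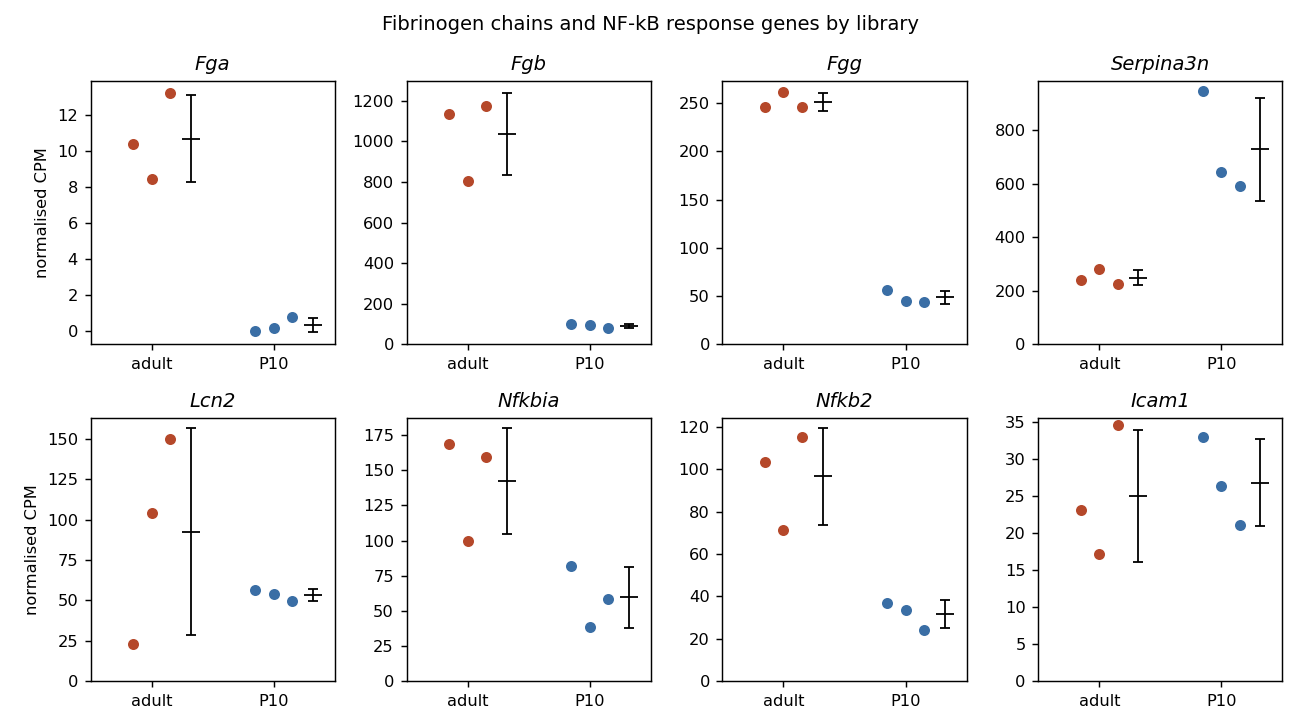
Normalised CPM of the 8 genes in each library, adult left of P10, with the mean and SD of 3 libraries as a bar beside the points. Adult and P10 points stand apart for the 3 fibrinogen chains, Nfkbia, Nfkb2 and Serpina3n, and overlap for Lcn2 and Icam1, with Lcn2 spread from 23.2 to 150 CPM in adults.

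The chromosomal neighbours of the fibrinogen genes had few reads or a lower level in adult islets. In the RefSeq order of GRCr8, used for neighbourhood only, Fgg, Fga and Fgb stand side by side between Lrat and Plrg1. Plrg1, a splicing factor gene, had 16.9 ± 1.91 CPM in adults and 28.0 ± 5.48 CPM at P10 (SD, n = 3 each). It was lower in adults with a log2 fold change of -0.73 ± 0.25 (SE; edgeR FDR = 0.0371), a call lost without any 1 library except P10 replicate 1 (FDR up to 0.141). Lrat, which makes retinyl esters, had 4 reads in adults and 12 at P10. Rbm46 had 5 reads in adults and 0 at P10, and Sfrp2, a Wnt inhibitor, had 1 and 8. Npy2r was listed at 0 in all libraries. Dchs2, the other gene among the 3 nearest on each side, was not analysed here.

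Markers of the liver, the main source of fibrinogen, had few or no reads in the same libraries, apart from Arg1 and Ttr. Of 15 hepatocyte markers with a row, Apoa2, Cps1, Cyp3a2 and Fabp1 had no read in any library, and Alb, serum albumin, had 9 reads in adults and 33 at P10. The summed level of the list was 183 to 237 CPM in adults and 57.7 to 63.6 CPM at P10, most of it Arg1, with 2350 reads in adults and 857 at P10. Ttr, transthyretin, had 11, 12 and 8 reads in adult replicates 1, 2 and 3, against 56, 47 and 26 reads in P10 replicates 1, 3 and 4, or 3.22 ± 1.55 CPM in adults and 6.96 ± 0.642 CPM at P10 (SD, n = 3 each). Of these 2 markers, the only ones on the list that were tested, Arg1 was higher in adults and Ttr did not pass (edgeR FDR = 0.140). Platelet markers summed to 1.47 to 6.98 CPM in adults and 1.49 to 3.12 CPM at P10, with Gp1bb, Gp9 and Ppbp at 0 throughout. Hp, haptoglobin, which hepatocytes make with fibrinogen in the acute phase, had 26 reads in adults and 22 at P10. The P10 reads were 18, 0 and 4 in replicates 1, 3 and 4. Hp levels were 2.29 ± 0.484 CPM in adults and 1.14 ± 1.23 CPM at P10 (SD, n = 3 each), not tested. Beta-cell markers were abundant in all libraries, with sums of 539280 to 672510 CPM in adults and 228120 to 297380 CPM at P10. Of 9 tested, 7 were higher in adults, beside 12.5% of all tested genes. The part of beta cells in the fibrinogen levels was not tested.

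Serpina3n and Lcn2, both secreted acute-phase proteins, did not share a pattern. Serpina3n, a serine protease inhibitor, had 241, 280 and 227 CPM in adult replicates 1, 2 and 3, against 948, 646 and 592 CPM in P10 replicates 1, 3 and 4. Every adult library was below every P10 library, and the fitted log2 fold change was -1.55 ± 0.16 (SE), or 2.93-fold lower in adults. Serpina3n belongs to a family of near-identical rat genes, so its count is uncertain where reads fit several copies. Fibroblast markers were lower in adults in 8 of 9 tested cases, beside 13.8% of all tested genes. These markers summed to 276 to 392 CPM in adults and 2772 to 3525 CPM at P10, with Col1a2 listed at 0 throughout. Their part in the Serpina3n levels was not tested.

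Lcn2, the iron-siderophore binding protein lipocalin 2, had 23.2, 104 and 150 CPM in adult replicates 1, 2 and 3, against 56.4, 54.1 and 49.3 CPM in P10 replicates 1, 3 and 4. Adult replicate 1 lay below all P10 libraries and the other adults lay above them, so the groups overlapped. The highest adult library was 6.47 times the lowest, while the P10 libraries lay within 1.14 times of each other. The log2 fold change was 0.81 ± 0.39 (SE), and it was 1.26 without adult replicate 1 and 0.25 without adult replicate 3. The estimated variation of Lcn2 between libraries of a group was larger than that of 99.8% of the 500 tested genes nearest in mean level. Neutrophils, a classical source of lipocalin 2, had marker sums of 0 to 3.49 CPM in adults and 1.22 to 4.90 CPM at P10 over 8 genes. Within a library, the ratio of Lcn2 to Serpina3n reads was 0.0963, 0.372 and 0.660 in adult replicates 1, 2 and 3, and 0.0595, 0.0837 and 0.0832 in P10 replicates 1, 3 and 4.

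**Figure D3:**
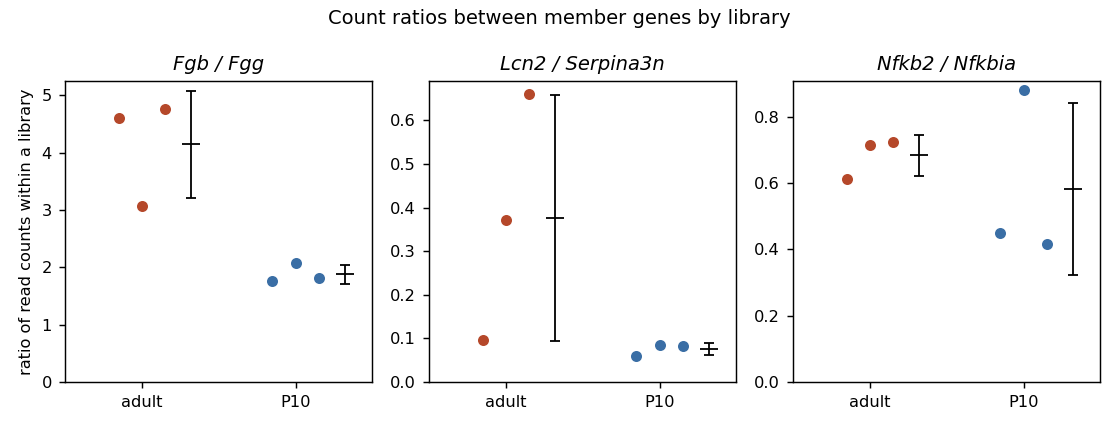
Ratio of read counts of 2 genes within a library, adult left of P10, with the mean and SD of 3 libraries beside the points. The Fgb to Fgg ratio averaged 4.15 in adults and 1.88 at P10 without overlap, and that of Nfkb2 to Nfkbia overlapped.

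The NF-kB regulators Nfkbia and Nfkb2 were both at higher levels in adult islets. Nfkbia, which encodes the inhibitor IκBα, had 169, 99.3 and 160 CPM in adult replicates 1, 2 and 3, against 81.9, 38.3 and 58.3 CPM in P10 replicates 1, 3 and 4. Adult replicate 2 was the lowest adult and P10 replicate 1 the highest pup library, and the groups did not overlap. The log2 fold change was 1.26 ± 0.24 (SE), or 2.40-fold. Nfkb2, which encodes the precursor p100 of the non-canonical pathway, had 103, 71.1 and 115 CPM in adults, against 36.8, 33.7 and 24.3 CPM at P10. Here too every adult library was above every P10 library, with a log2 fold change of 1.61 ± 0.21 (SE), or 3.05-fold. The ratio of Nfkb2 to Nfkbia reads was 0.684 ± 0.0617 in adults and 0.582 ± 0.259 at P10 (SD, n = 3 each), and the groups overlapped.

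Icam1, an endothelial and epithelial receptor for leukocyte integrins that also binds fibrinogen, had 23.2, 17.2 and 34.7 CPM in adult replicates 1, 2 and 3, against 33.0, 26.4 and 21.1 CPM in P10 replicates 1, 3 and 4. The groups overlapped widely, with a log2 fold change of -0.08 ± 0.27 (SE). Its sign changed with the libraries used, at 0.12 without adult replicate 2, 0.11 without P10 replicate 1 and -0.41 without adult replicate 3. Endothelial markers were lower in adults in 4 of 11 cases, beside 13.8% of all tested genes. Endothelial sums were 135 to 191 CPM in adults and 233 to 367 CPM at P10. The ratio of Icam1 to Nfkbia reads was 0.176 ± 0.0400 in adults and 0.485 ± 0.179 at P10 (SD, n = 3 each), without overlap. It restates the higher Nfkbia level in adults, since the levels of Icam1 overlapped.

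In edgeR's quasi-likelihood test over all genes, 5 of the 8 members were among the genes called higher in adults, beside 12.5% of all tested genes, and 1 among those called lower, beside 13.8% of all. The groups did not overlap in 6 members, beside 42.3% of all tested genes, of which 5 were higher in adults, beside 20.0% of all tested genes, and 1 was lower, beside 22.3% of all. Since the set was picked for this contrast, nothing is read from these counts. Counts of called members were 5 to 6 higher and 1 lower in every alternative fit, the added gene being Lcn2 with no filter and without adult replicate 1.

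**Figure D4:**
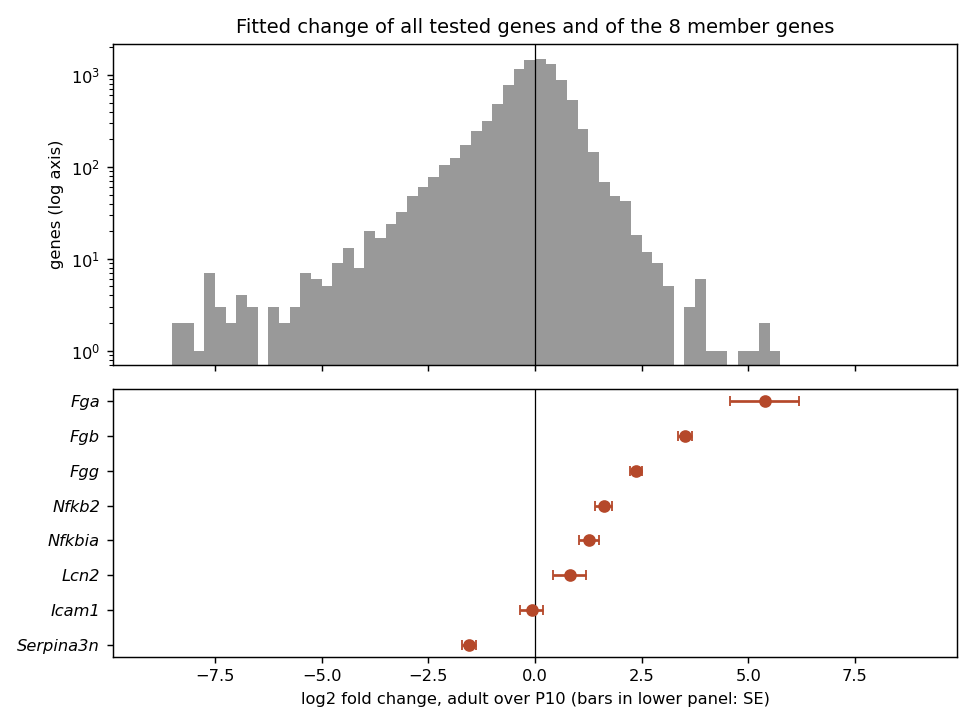
Upper panel, number of tested genes (log axis) by fitted log2 fold change, adult over P10. Lower panel, the 8 member genes on the same horizontal axis with their SE, from Fga (5.38) down to Serpina3n (-1.55).

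The profiles most like those of the fibrinogen chains were taken from 8772 other tested genes averaging at least 5 CPM. Likeness was the Euclidean distance between log2(CPM + 1) profiles over the 6 libraries, each centred on its mean, and it is a description only. Nearest to Fga were Ifit3, an interferon-induced gene (distance 0.510), Gcgr, the glucagon receptor (0.860), and Cck, cholecystokinin (0.967). Their fitted log2 fold changes were 4.21, 2.71 and 3.97, against 5.38 for Fga. The added 1 lessens the change of genes with few P10 reads, such as Fga. Nearest to Fgb were the class I gene RT1-CE16 (0.746), complement C3 (0.769) and Gad1, which makes GABA (0.913). C3, another liver-type acute-phase protein, had 201, 121 and 279 CPM in adults, against 28.2, 18.7 and 18.4 CPM at P10. Reads of RT1-CE16 are uncertain because its family has near-identical copies. Nearest to Fgg were Pc, pyruvate carboxylase (0.412), the ferritin heavy chain Fth1 (0.417) and Ndrg4 (0.486). No gene was nearest to more than 1 chain.

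Beyond the members, 5 lists of related genes were read from the same fit, in which 26.3% of the tested genes were called and the median log2 fold change was -0.03. Of the plasma and acute-phase proteins, 14 of 30 with a row were tested, 6 rose and 6 fell in adult islets, and 2 did not pass (list median -0.31). Mt2A, a metallothionein, rose 3.74-fold, with 109 ± 7.59 CPM in adults and 29.1 ± 7.33 CPM at P10 (SD, n = 3 each; edgeR FDR = 2.99e-06), and Mt1a rose 3.13-fold. Ambp, the precursor of α1-microglobulin, rose 2.09-fold, and Hpx, the haem carrier hemopexin, 39.7-fold. Itih3, a hyaluronan-binding chain, fell 3.00-fold. Tf, transferrin, fell 5.61-fold, with 6.57, 5.50 and 16.5 CPM in adult replicates 1, 2 and 3, against 62.0, 50.2 and 60.2 CPM in P10 replicates 1, 3 and 4. Its log2 fold change of -2.49 was -3.24 without adult replicate 3. Without any 1 library these 6 calls held, with edgeR FDR up to 0.00937. Orm1, orosomucoid, had 3, 5 and 39 reads in adult replicates 1, 2 and 3 and 0 in every P10 library, so that adult replicate 3 held most of its reads, and it was not tested. Lbp, which binds bacterial lipopolysaccharide, had 0 reads in adults and 106 at P10, at least 21.5-fold lower set against 3 reads over the adult group. The list thus held changes in both directions.

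Most changes among coagulation and fibrinolysis genes were falls. Of 23 tested, 10 fell, 2 rose and 11 did not pass, with a list median of -1.14. Leaving out single libraries gave 8 to 9 fallers. Tgm2, a transglutaminase that can crosslink proteins, fell 5.95-fold, with 20.2 ± 2.01 CPM in adults and 121 ± 12.8 CPM at P10 (SD, n = 3 each; edgeR FDR = 2.59e-08). Anxa2, a cell-surface receptor for plasminogen, fell 5.90-fold, F2r, the thrombin receptor, 4.62-fold, and Serpine2, an inhibitor of thrombin, 2.69-fold. F3, tissue factor, named after its values were seen, fell 3.91-fold (edgeR FDR = 0.000329). Plat, the tissue-type plasminogen activator, rose 1.98-fold (edgeR FDR = 0.000125), with 480 ± 78.2 CPM in adults and 242 ± 35.3 CPM at P10 (SD, n = 3 each). Thbd, thrombomodulin, rose 3.18-fold (edgeR FDR = 0.0300), a call lost without adult replicate 1 or adult replicate 2 (FDR = 0.113 and 0.111), where 1 gene of the list was called higher. F13a1, the factor that crosslinks fibrin, had 2 reads in adults and 0 at P10. F7, F9, F11, F12 and Kng1 were at 0 in all libraries. Fibroblast and duct markers were lower in adults in 8 of 9 and 6 of 7 cases, beside 13.8% of all tested genes. Both sets of markers moved with these falls, and their part was not tested. Duct marker sums were 664 to 895 CPM in adults and 2225 to 2525 CPM at P10.

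Of 38 NF-kB pathway components tested, 5 rose, 2 fell and 31 did not pass, and with library totals alone, without composition factors, 2 were higher and 8 lower. The share called was 18.4%, beside 26.3% of all tested genes, so little sets this count apart from the background, and the list median was 0.33. Il1r1, the interleukin-1 receptor, rose 2.45-fold, with 193, 128 and 144 CPM in adult replicates 1, 2 and 3, against 72.3, 62.1 and 54.4 CPM in P10 replicates 1, 3 and 4 (edgeR FDR = 4.18e-05). Irak1, a kinase below that receptor, rose 1.59-fold (edgeR FDR = 0.00096), though not with library totals alone (FDR = 0.381). Birc3, a ubiquitin ligase and NF-kB target, rose 2.53-fold (edgeR FDR = 0.00551), but not without adult replicate 3 (FDR = 0.0552). Tlr3, a receptor for double-stranded RNA, rose 5.51-fold (edgeR FDR = 0.0252), a call lost without any 1 library except P10 replicate 1, where its log2 fold change was 3.19 in place of 2.46. Nfkbiz, an atypical IκB gene named after its values were seen, rose 2.10-fold (edgeR FDR = 0.0470), a call lost without any 1 library. Ltbr, the lymphotoxin receptor of the non-canonical pathway, fell 1.60-fold (edgeR FDR = 0.00566), and Rbck1, a subunit of the linear ubiquitin ligase, 1.40-fold, a call lost without adult replicate 1, adult replicate 2, P10 replicate 1 or P10 replicate 4. The number of risers was 3 without adult replicate 1, P10 replicate 3 or P10 replicate 4, and 2 without adult replicate 3. Its number of fallers was 1 without adult replicate 1, adult replicate 2, P10 replicate 1 or P10 replicate 4.

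Rela, the p65 subunit, had 81.2 ± 5.07 CPM in adults and 66.3 ± 9.35 CPM at P10 (SD, n = 3 each) and did not pass (edgeR FDR = 0.189). Tnfrsf1a, the main TNF receptor, had 143 ± 1.06 CPM in adults and 117 ± 20.8 CPM at P10 (SD, n = 3 each; edgeR FDR = 0.152). Bcl3, an atypical IκB protein, had 51.9 ± 7.76 and 49.5 ± 13.8 CPM in adults and at P10 (SD, n = 3 each; edgeR FDR = 0.838), and Nfkbie, which encodes IκBε, 12.1 ± 2.58 CPM in adults and 8.26 ± 4.84 CPM at P10 (edgeR FDR = 0.397). Nfkb1 and Relb were not analysed here.

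Of 29 tested other NF-kB target genes, 8 rose, 3 fell and 18 did not pass, with a list median of 0.18. Cxcl10, a chemokine for T cells, had 212, 169 and 258 CPM in adult replicates 1, 2 and 3, against 51.7, 33.7 and 35.4 CPM in P10 replicates 1, 3 and 4, and rose 5.27-fold (edgeR FDR = 2.68e-07). Sod2, the mitochondrial superoxide dismutase, had 696, 411 and 585 CPM in adults, against 147, 137 and 119 CPM at P10, and rose 4.20-fold (edgeR FDR = 3.35e-07). Cxcl11 rose 4.26-fold and Cxcl1, a chemokine for neutrophils, 4.79-fold. In both, as in Cxcl10 and Sod2, no adult library overlapped a P10 library.

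Nos2, inducible nitric oxide synthase, Ccl20, a chemokine, and Il6, the cytokine interleukin-6, were named after their values were seen. Nos2 had 27.7, 6.96 and 121 CPM in adult replicates 1, 2 and 3, against 4.88, 4.75 and 2.43 CPM in P10 replicates 1, 3 and 4. Its adult libraries spread widely, and its log2 fold change of 3.67 ± 0.68 (SE; edgeR FDR = 0.000931) was 2.08 without adult replicate 3 (FDR = 0.0142). Ccl20 had 48 reads in adults and 3 at P10, a ratio of 26.3 with a 95% counting interval of 8.49 to 132. Its log2 fold change of 4.44 was 3.80 without P10 replicate 1 and 5.14 without P10 replicate 3. Il6 had 16.7 ± 7.80 CPM in adults and 7.31 ± 2.13 CPM at P10 (SD, n = 3 each; edgeR FDR = 0.0371), a call lost without adult replicate 2, adult replicate 3, P10 replicate 3 or P10 replicate 4 (FDR up to 0.239). Ier3, an early response gene, fell 1.94-fold (edgeR FDR = 6.59e-05), and Gadd45b, a stress response gene, 2.79-fold. The Gadd45b call was lost without adult replicate 1, adult replicate 2 or P10 replicate 3 (FDR from 0.0578 to 0.0671). Without adult replicate 3, 5 genes of the list rose, and without adult replicate 1 or P10 replicate 3, 1 fell. With library totals alone 8 were lower. Macrophage markers were lower in adults in 2 of 11 cases, beside 13.8% of all tested genes. Their sums overlapped, at 82.8 to 147 CPM in adults and 96.3 to 186 CPM at P10. Acinar marker sums were 1165, 1297 and 4613 CPM in adult replicates 1, 2 and 3 and 3275 to 4915 CPM at P10. Adult replicate 3, the adult highest in Nos2 and Lcn2, was thus also the adult highest in acinar genes. Among the members it was also the highest adult in Fga, Fgb, Nfkb2 and Icam1, but not in Fgg, Serpina3n or Nfkbia. Whether these go together was not tested.

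**Figure D5:**
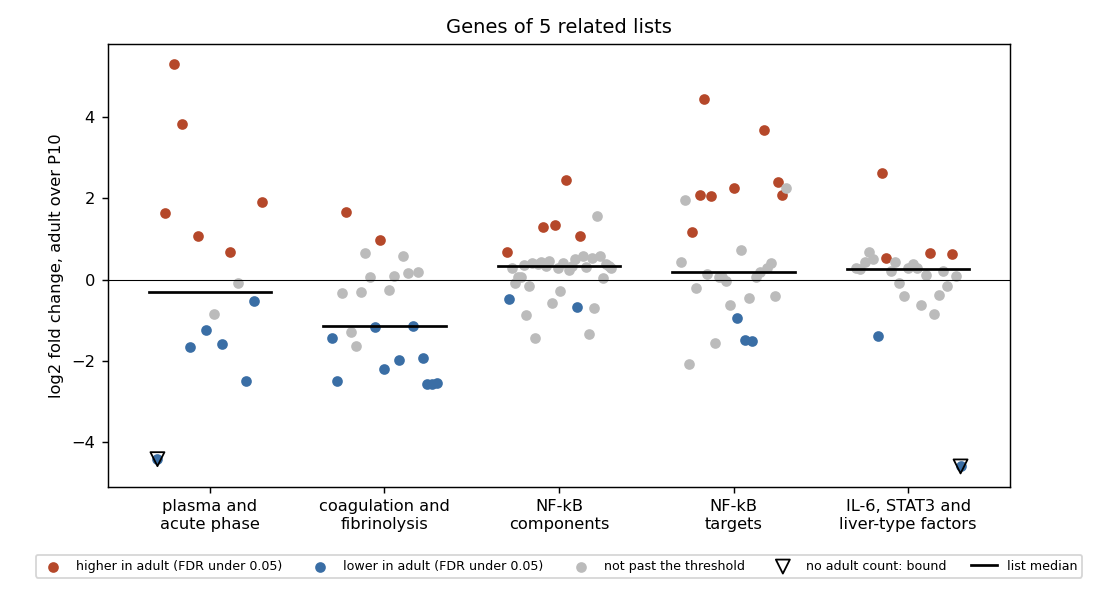
Fitted log2 fold change, adult over P10, of each tested gene in 5 lists, coloured by the edgeR call at an FDR under 0.05, with black lines at the list medians. Triangles mark Lbp and Onecut1, which had no adult read and are drawn at the bound set by 3 reads. Falls prevail in coagulation and fibrinolysis (10 of 23, against 2 rises).

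Among genes of interleukin-6 and STAT3 signalling and liver-type transcription factors, 4 of 25 rose, 2 fell and 19 did not pass. The share called was 24%, beside 26.3% of all tested genes, so little sets this count apart from the background. The list median was 0.27. With library totals alone 1 was higher and 6 lower. Lif, a cytokine of the interleukin-6 family, rose 6.21-fold, with 19.0 ± 4.52 CPM in adults and 3.07 ± 0.992 CPM at P10 (SD, n = 3 each; edgeR FDR = 0.000175). Stat3, which carries interleukin-6 signals to the nucleus, rose 1.45-fold, with 409, 384 and 349 CPM in adults, against 244, 252 and 292 CPM at P10 (edgeR FDR = 0.00439). With library totals alone its log2 fold change was 0.040 (FDR = 0.846).

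Il6st, the shared receptor chain gp130, had 224 ± 15.9 CPM in adults and 183 ± 23.0 CPM at P10 (SD, n = 3 each; edgeR FDR = 0.110), and Il6r, the interleukin-6 receptor, 49.7 ± 3.57 CPM in adults and 36.5 ± 5.74 CPM at P10 (edgeR FDR = 0.0877). Cebpb, a C/EBP factor of the acute phase, had 35.7 ± 15.01 CPM in adults and 37.5 ± 3.99 CPM at P10 (SD, n = 3 each; edgeR FDR = 0.848). Cebpd, its relative, had 22.0 ± 4.41 CPM in adults and 16.3 ± 5.70 CPM at P10 (SD, n = 3 each; edgeR FDR = 0.318). Onecut1, a liver and progenitor factor, had 0 reads in adults and 120 at P10, at least 24.3-fold lower set against 3 reads over the adult group. Il11ra1, the interleukin-11 receptor, fell 2.63-fold, a call lost without adult replicate 2, adult replicate 3 or P10 replicate 1 (edgeR FDR from 0.0533 to 0.106). Its log2 fold change of -1.40 was -0.80 without P10 replicate 1. The list had 1 faller without adult replicate 2 or P10 replicate 1.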

How the data were processed

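Per the labels' protocols, islet RNA was selected with oligo(dT) and read as single ends without strand information, so reads of overlapping genes on opposite strands cannot be told apart. TopHat2 2.0.10, Bowtie2 and HTSeq were used with build rn5, per the submitters' processing notes, and DESeq and edgeR have no stated role. Each library's deposited file holds raw counts by gene symbol, whose 5 closing counter lines were left out here. Ambiguous reads made up 0.319% to 0.474%, and alignments that were not unique 15.1% to 27.7%, of gene counts and counters together. The 6 value columns of a summary table of the series were not used.

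Differential expression was fitted with edgeR 4.0.16 in R 4.3.3 on all 6 libraries, with age as the single covariate. Genes were kept by filterByExpr (minimum count 10, total 15), which left 10124, and libraries were scaled by TMM factors. FDR is edgeR's p after Benjamini-Hochberg adjustment across every gene tested, and genes under 0.05 were called. The SE was derived from each log2 fold change and its F statistic. The scripts were tested on simulated data. Folds are fitted values, given for falls as P10 over adult.

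Members, lists and motifs were chosen with earlier results of these data, or the promoter letters, known. Named genes are the members, 16 genes fixed whatever their result, and in each list up to 4 called genes with the smallest p in the direction more took and 2 in the other. Genes outside the rule are said to be so, and a few that it names are left unreported. Alternatives were relative log expression (RLE) factors, library totals alone, DESeq2 1.42.0, no filter, a minimum of 5 CPM in 3 libraries, a replicate block, and leaving out each library.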

Additional observations from a re-analysis of the deposited data

How the results depend on the processing

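Over all genes 1265 were higher and 1394 lower in adult islets. With library totals alone these were 343 and 3612, with rises making up 8.67% of calls in place of 47.6%. The median gene moved by -0.49 on the log2 scale. In that setting 1 coagulation gene, 2 NF-kB components and 1 interleukin-6 list gene were higher, and 8 components, 8 NF-kB targets and 6 interleukin-6 list genes were lower. With at least 5 CPM in 3 libraries 3 components rose. With the replicate number as a block, in which only the numbers 1 and 3 occur in both groups, 679 genes rose and 729 fell. Under the block 1 coagulation gene, 3 components, 5 targets and 2 interleukin-6 list genes rose, and 1 component and 1 interleukin-6 list gene fell. Deviations of same-numbered libraries correlated at -0.024 for number 1 and -0.0049 for number 3, and the labels do not say that a number marks anything shared. Leaving out single libraries gave 923 to 1262 higher and 1040 to 1266 lower genes. It gave 1 to 2 risers of coagulation, 2 to 5 of the components and 5 to 11 of the targets. The fallers were 8 to 9 coagulation genes, 4 to 7 plasma and acute-phase genes, 1 to 2 components, 1 to 3 targets and 1 to 2 interleukin-6 list genes.

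The 3 fibrinogen chains, Nfkbia and Nfkb2 stayed higher and Serpina3n lower in adults in every alternative. With library totals alone the log2 fold changes were 3.03 for Fgb, 1.88 for Fgg, -2.04 for Serpina3n and 0.80 for Nfkbia. Some genes that did not pass changed sign. With library totals alone these were Rela (-0.21), Bcl3 (-0.41), Tnfrsf1a (-0.20), Il6st (-0.19), Il6r (-0.050) and Cebpd (-0.064). Over single libraries left out Bcl3 ranged from -0.079 to 0.34 and Cebpb from -0.47 to 0.13. Bcl3 was at -0.050 without adult replicate 3 and -0.079 without P10 replicate 3. Cebpb was at 0.062 under the block, and at 0.049, 0.13 and 0.0075 without adult replicate 2, adult replicate 3 and P10 replicate 4. The cause was not tested. Few reads limit the values of Fga, with 4 reads at P10, and of Ccl20, with 3.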
